A study of Mus musculus with 12 samples.

Results

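Primary cilium and polycystic disease genes were examined in liver cells of C57Bl/6 mice that carried a Sox9EGFP transgene, in which green fluorescence reports on Sox9, a transcription factor of bile duct cells. The set held 40 genes out of 54227 gene symbols in the deposited table. They were chosen by symbol, with earlier results of these data known. They are the genes of fibrocystin, the polycystins and other cystic disease proteins and of the transport, gating and sorting machinery of the cilium. All mice were fasted for 16 h, livers were digested to single cells, and 12000 cells per population were sorted by EGFP into 4 gates. These gates were EGFP-negative (neg), below low (sub), low and high, with 3 libraries each, and every gate came from transgenic mice. Age and sex were not given. Libraries of the same replicate number also shared a tag across the 4 gates. The tag may name a mouse, but the labels did not say so, and p-values therefore measure only the spread between these libraries. Reading depth, recovered from the values, ranged from 8775387 to 15535588 reads per library.

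The primary cilium is a single, non-motile antenna on the apical surface of bile duct cells, where it senses bile flow and composition; hepatocytes lack it. Intraflagellar transport (IFT) trains, pulled outward by kinesin-2 and back by dynein-2, build it. A transition zone at its base gates entry, and the BBSome carries membrane proteins out. Loss of fibrocystin causes autosomal recessive polycystic kidney disease with congenital hepatic fibrosis, loss of a polycystin causes the dominant form, and loss of several endoplasmic reticulum proteins that process them causes polycystic liver disease.

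The gates were first compared with cell type markers. In neg, 5 of 10 biliary markers (Epcam, Spp1, Cftr, Sctr and Onecut1) were at 0 in all 3 libraries, and the summed biliary level lay between 436.0 and 1020 normalised counts. That sum lay between 13100 and 32125 in sub, 63170 and 72530 in low, and 50997 and 55903 in high. The 10 endothelial markers summed to between 93232 and 134596 in neg, 30200 and 36405 in sub, 719.1 and 1929 in low, and 555.4 and 899.1 in high. Erg and Emcn, both endothelial, were at 0 in all low and at 0 in all high libraries. The 10 stellate and mesenchymal markers summed to between 21223 and 34967 in neg, 25818 and 35379 in sub, 627.9 and 2598 in low, and 486.8 and 1935 in high. The 12 hepatocyte markers summed to between 395.0 and 1003 in neg, 6880 and 7552 in sub, 13984 and 21610 in low, and 18119 and 20963 in high, and 2, 3 and 4 of the 11 tested rose against neg in sub, low and high (limma), Alb and Ahsg in all 3, while 2, 3 and 3 were lower without passing. Kupffer and lymphocyte markers summed to at most 1526 and 1108 in any library. Of the 5 Kupffer markers tested, Csf1r rose in low and in high against neg (limma), while 2 were lower in each without passing. The 10 measured motile cilia genes summed to at most 0.7 in neg and 101.1 in high, where 9 each were at 0 in all libraries. They summed to between 0 and 1142 in sub and 584.8 and 1013 in low. Neg thus lacked 5 of the 10 biliary markers, while reads of the others (Krt7, Krt19, Cldn7, Cdh1 and Slc4a2) were present. Sub held endothelial and mesenchymal transcripts beside biliary ones, and the summed hepatocyte level was higher in each EGFP-positive library than in neg. The part of these other cell types in the results below was not tested. In sorted bulk cells, fewer cells of a type and less RNA per cell cannot be told apart.

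Promoter windows are shown for Bbs7 and Ift57, components of the general ciliary machinery that were read in only 3 and 6 of the 12 libraries. Each is the 250 bases before the transcription start, 5′ to 3′ on the gene's strand, from RefSeq (GRCm38.p6). Capitals mark a match to the X-box, the site read by RFX factors, which drive many ciliary genes. It was spelled GT, 2 free bases, CC, 2 free bases, GG, 1 free base and AAC. Similar letters with another spacing are not marked, such as gttgcctggtaac in the Ift57 window. Both strands were searched (in Ift57 the match reads on the complementary strand), and the spelling was chosen after others had been tried.
Bbs7, chr3:36613390-36613639, minus strand: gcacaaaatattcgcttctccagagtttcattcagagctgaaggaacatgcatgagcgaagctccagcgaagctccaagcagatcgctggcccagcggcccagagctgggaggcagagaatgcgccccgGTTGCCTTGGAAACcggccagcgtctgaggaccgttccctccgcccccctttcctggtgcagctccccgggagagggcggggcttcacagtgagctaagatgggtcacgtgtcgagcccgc
Ift57, chr16:49699044-49699293, plus strand: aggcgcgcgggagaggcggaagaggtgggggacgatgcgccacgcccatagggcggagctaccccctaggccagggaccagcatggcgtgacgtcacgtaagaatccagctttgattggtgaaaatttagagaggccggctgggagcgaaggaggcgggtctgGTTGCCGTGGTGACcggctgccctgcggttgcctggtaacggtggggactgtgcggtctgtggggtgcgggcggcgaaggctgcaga
Of the 40 genes, 33 had a window of 250 bases before to 50 after the start. The X-box letters occurred in 7 of the 33 genes (Ahi1, Bbs1, Bbs4, Bbs7, Ift22, Ift57 and Nphp4). These 33 genes had 36 windows. Over all 32851 windows 1.29% held the letters, which is a share of windows and not of genes. Because the spelling was chosen after others had been tried, these values are no test. A match of letters is not a measured binding site.

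As a set, the 40 genes summed to more in brighter gates, and much of that came from Pkhd1. Their normalised counts added up to 18176, 21405 and 16938 in neg and 22273, 24335 and 29483 in sub. It was 35049, 38223 and 33538 in low and 36933, 40226 and 33675 in high. The neg, sub and low libraries did not overlap with each other, while low and high did. From neg to high the means were 18840 ± 2306, 25364 ± 3713, 35603 ± 2391 and 36945 ± 3275 (SD, n = 3 each). Without Pkhd1, the other 39 genes summed to 18840 ± 2306, 20146 ± 4996, 26971 ± 3365 and 24953 ± 2622 in the same order. Sub, from 16094 to 25728, then overlapped with every other gate, while low and high still lay above neg. With Bicc1 and Lrp5 left out too, high, from 12750.8 to 17875.8, overlapped with neg, from 10501.1 to 12767.6. Low, from 15123.5 to 21573.4, then still lay above neg. Members were tested on log2(normalised count + 1) with limma over all 16128 genes with a mean of at least 10, and 38 of the 40 entered; Ift22, listed at 0 in every library, and Nphp4 did not.

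Against neg, limma with Benjamini-Hochberg adjustment at 0.05 called 1 member in sub, 3 in low and 3 in high. That is 2.63% of the members tested in sub, where 1.19% of all genes passed, and 7.89% in low and in high, where 4.69% of all genes passed in each. The genes were Pkhd1 in all 3 gates, Bicc1 in low and high, Lrp5 in low and Arl13b in high. Over all 4 gates the limma F test called Bicc1, Lrp5 and Pkhd1, where 4.23% of all genes passed. The median log2 change of the 38 members was 0.62 in sub, 2.36 in low and 2.58 in high, beside 0.00, 0.00 and 0.13 over all genes tested. By the mean of the log2 values, 27 members were higher and 10 lower in low than in neg, beside 7683 and 7405 of all genes. In high 30 were higher and 8 lower, beside 8372 and 6822. Between the EGFP-positive gates no member passed in limma. After adjustment 0.744%, 0.986% and 0.0% of all genes passed for low against sub, high against sub and high against low. Without adjustment p was under 0.05 for 7, 5 and 1 members in those contrasts, where 10.2%, 10.2% and 4.24% of all genes reached it. In these contrasts edgeR on 10 libraries called 0 members in each contrast, and DESeq2 on the same libraries called 4, 3 and 1.

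Pkhd1, which encodes fibrocystin, a large membrane protein of the cilium and the cause of the recessive disease, was the member with the clearest pattern. The gene spans 20057779 to 20618064 of chromosome 1, minus strand (protein coding, GENCODE M21 on GRCm38, the assembly also named mm10). Its normalised count was 0 in all 3 neg libraries and 6179, 5720 and 3754 in sub. It was 8617, 7651 and 9630 in low and 11167, 13154 and 11654 in high. No library of a gate overlapped with the next, so Pkhd1 ranked in the order of EGFP brightness over all 12 libraries. Against a floor of 3 reads in neg, it was at least 1422-fold higher in sub, 2353-fold in low and 3268-fold in high (limma adjusted p 7.92e-09, 1.73e-09 and 8.12e-10). Low stood at 1.65 times the sub mean and high at 1.39 times the low mean, but these log2 changes of 0.75 ± 0.78 and 0.48 ± 0.78 (SE) had adjusted p of 0.771 and 1. High against sub was 2.30 times, with a log2 change of 1.23 ± 0.78 (adjusted p 0.652). Each of the 3 calls against neg held in edgeR and DESeq2; in limma fits of only the 2 gates, sub against neg was lost (adjusted p 0.183). Pkhd1 overlaps Gm15795, Gm24162 and Gm37315 on its own strand and 4930486I03Rik on the other, so reads of these could not be told apart from it with certainty.

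Neither of the 2 polycystins passed the threshold in limma over all libraries. Pkd1, the large receptor-like polycystin-1 (chromosome 17, 24549834 to 24596508, plus strand), held 780.7, 2684 and 2574 in neg and 777.5, 1986 and 2538 in sub. It held 649.4, 1313 and 87.9 in low and 1272, 806.5 and 344.7 in high. All 4 gates overlapped, with means of 2013 ± 1069 in neg and 683.3 ± 613.1 in low, and the log2 change of -2.05 ± 1.005 (SE) did not pass (adjusted p 0.327). Pkd1 overlaps Gm24589 on its own strand and Tsc2 on the opposite one, and whether counting used strand is not given in the sources used here.

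Pkd2, the cation channel polycystin-2 (chromosome 5, 104459450 to 104505819, plus strand), held 793.9, 901.3 and 128.5 in neg and 1928, 3124 and 2814 in sub. It held 2615, 2264 and 2229 in low and 2140, 2515 and 1503 in high. Every EGFP-positive library lay above every neg library, and the positive gates overlapped with each other. The log2 changes against neg were 2.505 ± 0.71 in sub, 2.38 ± 0.71 in low and 2.15 ± 0.71 in high, and none passed, with adjusted p of 0.123, 0.0642 and 0.0998 in limma. Low against neg passed without neg 2 (0.0393) and in 2 other settings, and its adjusted p reached 0.790 in DESeq2. Per kilobase of the longest coding transcript, Pkd2 stood at 393.3 ± 98.0 normalised counts in high, Pkd1 at 57.0 ± 32.7 and Pkhd1 at 927.1 ± 80.1 (SD, n = 3 each). In sub the Pkd2 level per kilobase, 502.4 ± 119.0, and that of Pkhd1, 403.4 ± 99.6, lay within their spread.

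**Figure D1:**
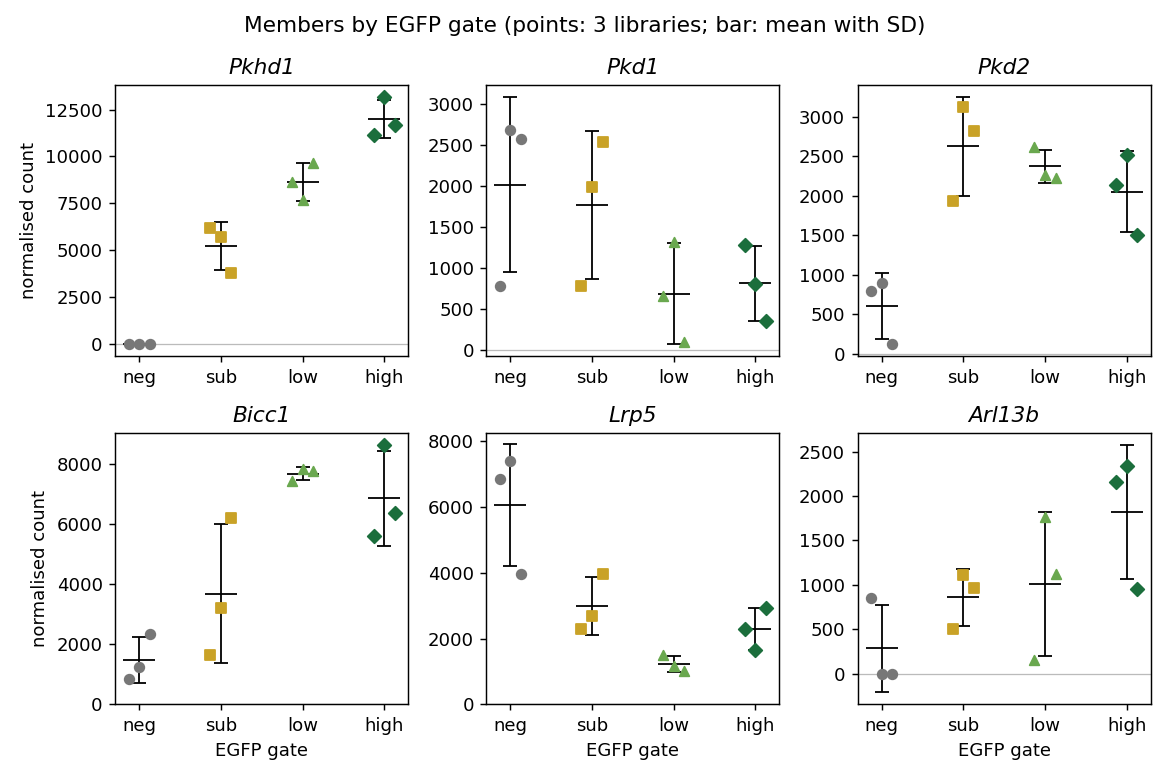
Normalised counts (vertical axis, linear) of 6 members in the 4 EGFP gates (horizontal axis); points are the 3 libraries of a gate, and the bar with whiskers is the mean with SD. Pkhd1 rises from 0 in neg to between 11167 and 13154 in high without overlap between gates, while Lrp5 is highest in neg.

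Bicc1 (chromosome 10, 70922832 to 71159700, minus strand), an RNA-binding protein whose loss gives cystic kidneys and bile ducts in mice, was the other member that rose in both bright gates. Its libraries held 830.5, 1245 and 2324 in neg and 1647, 3199 and 6187 in sub. They held 7425, 7824 and 7775 in low and 5591, 8632 and 6352 in high. Both bright gates lay wholly above neg, and the sub libraries spread from inside the neg range into the high range. Low was 5.23 times neg (log2 change 2.52 ± 0.46, limma adjusted p 0.00266) and high 4.68 times neg (2.33 ± 0.46, adjusted p 0.00483). The changes of 1.25 ± 0.46 for sub against neg and 1.264 ± 0.46 for low against sub did not pass (adjusted p 0.330 and 0.294). Both calls held in edgeR and when any library was left out, and both were lost without the variance trend, in fits of only 2 gates and in DESeq2 (adjusted p 0.574 and 0.766). Unlike Pkhd1, Bicc1 was read in every neg library. Per kilobase its level was above that of Pkhd1 in low, at 1413 ± 40.01 against 667.4 ± 76.5. Bicc1 overlaps Gm48025 on its own strand and 4930533K18Rik, Gm15647 and Gm32025 on the opposite one.

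Among the polycystic liver disease genes, Lrp5 moved the other way. It encodes a WNT co-receptor (chromosome 19, 3584828 to 3686564, minus strand). Its normalised count was 6845, 7393 and 3952 in neg and 2283, 2681 and 3975 in sub. It was 1485, 1175 and 1009 in low and 2299, 1647 and 2919 in high. Both bright gates lay below neg without overlap, and sub touched neg in 1 library. Low fell to 0.202 of the neg level (log2 change -2.27 ± 0.46, limma adjusted p 0.0064). High stood at 0.377 of it (-1.39 ± 0.46, adjusted p 0.101) and sub at 0.491 (-1.01 ± 0.46, adjusted p 0.495), and neither passed. The low call held in edgeR and with any library left out. It did not pass in the 2-gate fit, in DESeq2 or in limma without the variance trend (adjusted p up to 0.611). The endothelial markers given above fell along the same gates, all 10 of them past the threshold in low against neg; their part in the fall of Lrp5 was not tested.

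The endoplasmic reticulum genes of the set gave no call in limma. Sec63, part of the protein translocation channel, held 2226, 1987 and 2565 in neg and 1384, 1508 and 1545 in sub, so sub lay below neg, while low (1514 to 2883) and high (1002 to 2137) overlapped with it. Prkcsh, the regulatory subunit of glucosidase II, which trims sugars from new glycoproteins, was 1287, 2490 and 845.1 in neg and 387.6, 72.1 and 321.2 in sub. Its sub libraries were all lower, with a log2 change of -2.74 ± 1.02 and a limma adjusted p of 0.340. Ganab, the catalytic subunit of the same enzyme, was 194.1, 89.3 and 0 in neg and 394.8, 880.2 and 319.7 in low, so low lay above neg without passing (adjusted p 0.332), and sub and high overlapped with neg. These 3 genes do not act in the cilium itself.

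The 32 genes of the ciliary machinery were measured far less well. Their means over the 12 libraries had a median of 229.3 normalised counts and reached 991.8 at most, in Arl13b, and 25 of them had a mean of at least 100. Only 2, Ift46 and Invs, had more than 3 reads in all 12 libraries among them, while 17.3% of all genes tested did. Many stood at 0 in some libraries and were well above the floor in others of the same gate. Ift27 shows this, at 0 in 10 libraries, 18.6 in low 1 and 546.4 in high 3. Values of this kind leave wide errors, and differences of several-fold could not be detected in most of these genes.

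**Figure D2:**
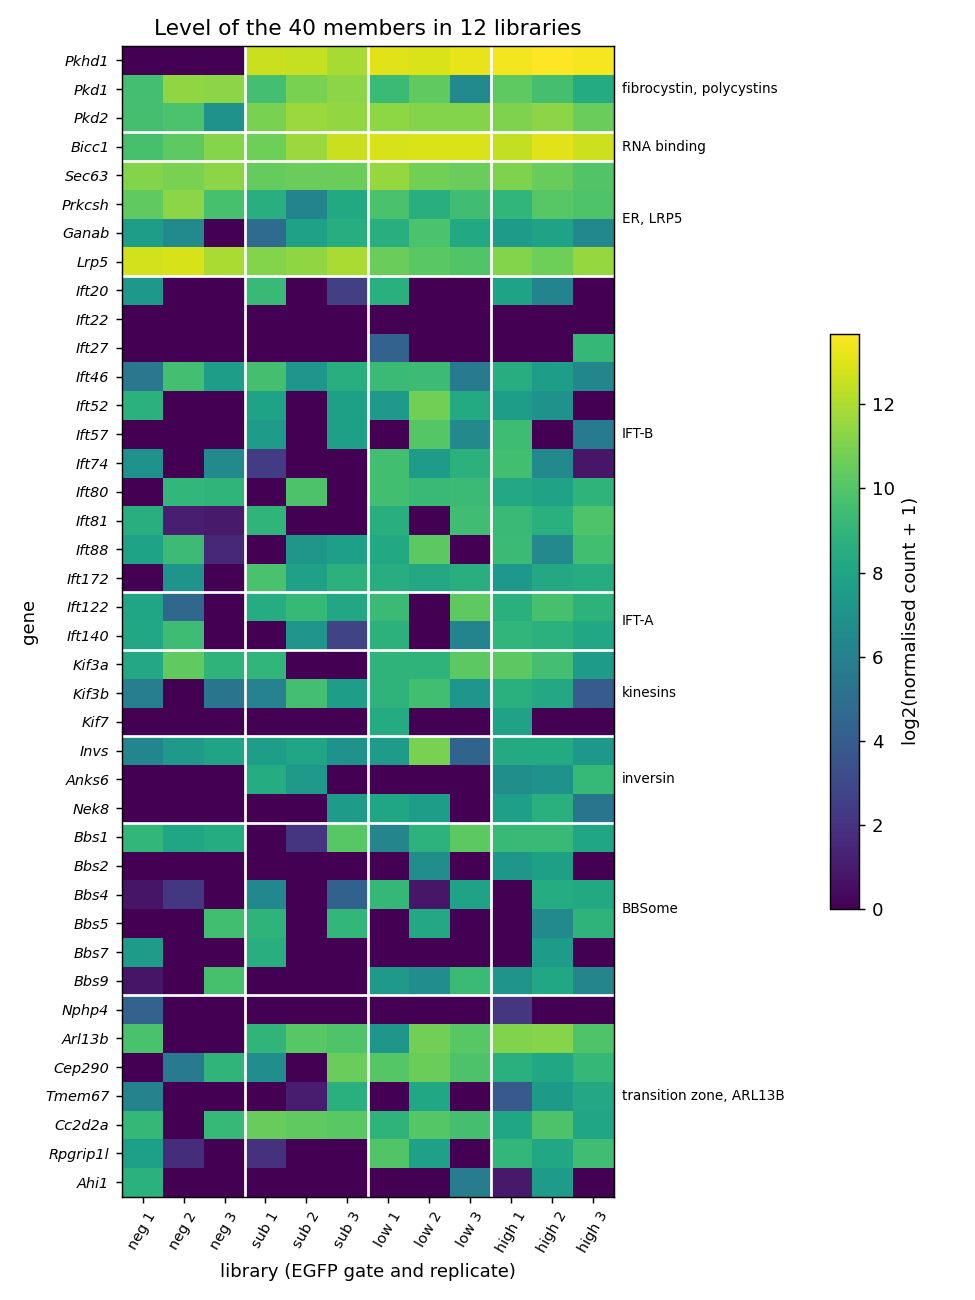
Colour gives log2(normalised count + 1) of the 40 genes (rows, grouped by role) in the 12 libraries (columns, 3 per EGFP gate, from neg on the left to high on the right). Dark cells are values at or near 0; they are scattered over the machinery genes in every gate, and there are fewer in high than in neg.

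More of the machinery was detected in brighter gates. Genes with more than 3 reads numbered 19, 10 and 11 of 32 in the neg libraries and 19, 11 and 18 in sub. They numbered 23, 20 and 19 in low and 26, 27 and 23 in high. Neg and sub overlapped, low reached the top of both, and high lay above both. From neg to high, 4, 7, 13 and 19 were found in all 3 libraries of a gate. As shares these are 12.5%, 21.9%, 40.6% and 59.4%, beside 33.0%, 32.3%, 35.5% and 41.2% of all genes tested. The share of all tested genes above 3 reads also differed between libraries: it was 65.6% in high 1, 64.03% in high 2 and 69.0% in low 1, and from 48.8% to 60.6% in the others. Its part in the machinery counts was not tested. Machinery levels added up to 4795 ± 369, 7155 ± 1168, 11795 ± 2790 and 10382 ± 1420 from neg to high.

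**Figure D3:**
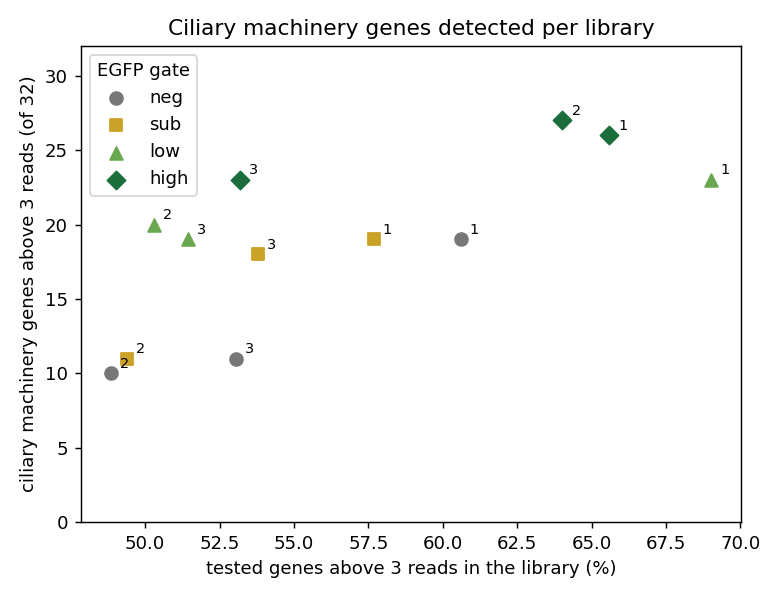
The number of the 32 ciliary machinery genes with more than 3 reads (vertical axis) against the share of all tested genes with more than 3 reads (horizontal axis, percent) in each library; symbols give the EGFP gate and numbers the replicate. High 3 lies at 23 genes and neg 3 at 11 with nearly the same share of tested genes, 53.2% and 53.0%. Near that share, sub 3 lies at 18 genes (53.8%) and low 3 at 19 (51.4%). At higher shares, neg 1 lies at 19 genes (60.6%) and sub 1 at 19 (57.7%). The part of this share in the machinery counts was not tested.

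A gate whose 3 libraries all lie above those of another can be counted without a model. In sub 6 of the 38 tested members lay wholly above neg, 15.8% of them, where 4.69% of all genes tested did. In low 9 did, 23.7% against 8.38%, and in high 10 did, 26.3% against 10.2%. Wholly below neg were 2 members in sub, 1 in low and 1 in high, which is 5.26%, 2.63% and 2.63% of the members beside 4.99%, 8.52% and 8.61% of all genes. Pkhd1, Pkd2 and Ift172 lay above neg in all 3 gates. Bicc1 did so in low and high, Ift122 in sub and high, and Kif3b in sub and low. Those of 1 gate were Cc2d2a in sub, Cep290, Ganab, Ift74 and Ift80 in low, and Anks6, Arl13b, Ift81, Nek8 and Rpgrip1l in high. Between the EGFP-positive gates, 4 members were wholly higher in low than in sub (10.5% against 5.75% of all genes), 5 in high than in sub (13.2% against 7.2%) and 3 in high than in low (7.89% against 4.06%). Wholly lower were 2, 1 and 3 members in the same contrasts, 5.26%, 2.63% and 7.89% of them against 5.99%, 5.91% and 3.28% of all genes.

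Of the IFT-B genes, which build the outward trains, 9 of the 10 tested had a higher mean log2 value in low than in neg and 9 in high. The median log2 changes were 2.90 and 2.31, with many libraries at 0. Summed normalised counts of the 11 IFT-B genes had means of 1424 in neg, 4061 in low and 2891 in high. In sub 5 were higher than in neg, 4 lower and 1 equal, with a median change of 0.47. None passed the threshold in limma. DESeq2 on 10 libraries called Ift27 and Ift57 in low and in high against neg, and Ift27 in both against sub. That fit leaves out high 2, where both were 0, and sub 3, where Ift57 was 216.4. Ift57 was 0 in all neg libraries and 179.8, 0 and 216.4 in sub. It was 0, 1082.5 and 85.5 in low and 700.9, 0 and 51.5 in high. The only low library with Ift27 reads was low 1, at 18.6. By the mean normalised count Ift46, Ift52 and Ift80 were lower in high than in neg. Ift172, the largest of them, was 0, 135.7 and 0 in neg and 858.6, 225.5 and 439.9 in sub. It was 368.8, 303.3 and 383.0 in low and 156.6, 306.2 and 356.1 in high. All 9 positive libraries lay above neg, and the log2 changes of 6.42 ± 2.03, 6.09 ± 2.03 and 5.65 ± 2.03 for sub, low and high did not pass (limma adjusted p 0.197, 0.105 and 0.136). They passed without neg 2, the only neg library with reads, at 0.0222, 0.0178 and 0.0221.

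Ift80, the IFT-B gene with the highest mean, was 0, 533.2 and 498.4 in neg and 0, 940.0 and 0 in sub. It was 731.0, 620.2 and 635.3 in low and 307.2, 239.5 and 469.6 in high, so the low libraries were close together and lay above neg. Ift46 was read in every library, from 42.8 in neg 1 to 815.1 in sub 1, with overlap between all gates. Ift20, which also works at the Golgi, was read in 1 neg library and in 6 libraries in all. Ift74 was at 4.4, 0 and 0 in sub and at 739.2, 181.8 and 442.2 in low, with overlap between low and high.

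Both IFT-A genes, which serve the return trains, were read in all 3 high libraries. Ift122 was 261.9, 23.2 and 0 in neg, 351.5, 583.9 and 287.3 in sub, 649.4, 0 and 1233 in low, and 410.2, 838.8 and 461.5 in high. Sub and high thus lay above neg, and low ranged from 0 to the highest value of all. Ift140 was 292.3, 699.5 and 0 in neg and 0, 139.7 and 6.0 in sub. It was 442.3, 0 and 70.7 in low and 508.8, 426.5 and 289.1 in high. High thus lay above sub and overlapped with neg and low.

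The kinesins gave no call in limma. Kif3a, a motor subunit, was 306.1, 1300 and 469.4 in neg, 507.8, 0 and 0 in sub, 472.0, 482.6 and 1187 in low, and 1202, 768.1 and 186.2 in high. Only sub held libraries at 0, and its log2 changes of -6.16 ± 2.06 against neg and 6.34 ± 2.06 for low against sub did not pass (limma adjusted p 0.238 and 0.204). Both passed without sub 1, at 0.0115 and 0.0286. Kif3b, its partner motor, was 66.3, 770.5 and 194.5 in sub and at most 56.0 in neg. Kif7, a kinesin of the ciliary tip in Hedgehog signalling, was read in low 1 and high 1 alone.

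The inversin compartment is a segment near the base of the cilium. Invs, its scaffold, was read in every library, from 20.5 in low 3 to 1922 in low 2. Anks6 and Nek8, an adaptor and a kinase that work together there, were both at 0 in all neg libraries. Anks6 was 354.5, 159.1 and 0 in sub, 0 in all low libraries, and 113.4, 124.3 and 572.5 in high. Its high mean was at least 73.6-fold above the neg floor, without passing in limma (adjusted p 0.0948); DESeq2 on 10 libraries gave 0.00711 and edgeR 0.384. In the same fit, which leaves out sub 3 where Anks6 was 0, DESeq2 also called it higher in sub than in neg (adjusted p 0.0111) and in high than in low (0.0122), and lower in low than in sub (0.00998). None of these was called by limma or edgeR. Nek8 was 0, 0 and 186.5 in sub, 269.4, 205.6 and 0 in low, and 207.7, 405.3 and 38.4 in high, and was called by DESeq2 alone, in low and in high against neg.

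The BBSome genes gave no call in limma. By the mean log2 value 5 of 6 were higher in high than in neg, but by the mean normalised count Bbs5 (190.0 against 246.0), Bbs7 (59.6 against 61.0) and Bbs9 (168.4 against 280.3) were lower. By the mean log2 value 3 were higher and 3 lower in low than in neg. In sub 3 were higher, 2 lower and 1 equal. Bbs1, the one with the highest mean, was 535.5, 272.7 and 359.3 in neg, 0, 3.4 and 1137 in sub, 74.2, 461.4 and 1197 in low, and 603.1, 604.4 and 263.0 in high, with overlap between all gates. Bbs9 was at 0 in all sub libraries and at 170.0, 102.0 and 629.6 in low and 136.7, 295.1 and 73.5 in high, while neg held 0.7, 0 and 840.3; DESeq2 on 10 libraries called it in the 3 contrasts with sub. Bbs2 and Bbs7, with 3 libraries above the floor of 3 reads each, were too sparse to compare. Among the genes with X-box letters in the window, the 5 that were tested (Ahi1, Bbs1, Bbs4, Bbs7 and Ift57) all failed to pass in limma, while DESeq2 called Ift57, as given above, and Bbs1 in the 3 contrasts with sub. Those Bbs1 calls were made without sub 3, the only sub library in which it was well above the floor.

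Arl13b was the only machinery gene to pass in the limma fit of all 12 libraries by gate. It encodes a small GTPase of the ciliary membrane (chromosome 16, 62793685 to 62847040, minus strand). It was 847.7, 0 and 0 in neg and 500.4, 1109 and 960.6 in sub. It was 152.9, 1760 and 1122 in low and 2159, 2339 and 951.5 in high. High lay above neg, 6.43 times its mean, and sub and low overlapped with neg through neg 1. The log2 change for high was 7.48 ± 2.01 (adjusted p 0.0376), and those of 6.42 ± 2.01 in sub and 6.15 ± 2.01 in low did not pass (0.190 and 0.0971). The high call passed in 8 of 24 alternatives; it was lost in edgeR and DESeq2 and in each fit that left out 1 library except those without neg 1 (0.000397) and low 1, and its adjusted p reached 0.927. Arl13b overlaps Stx19 on the opposite strand.

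Transition zone genes were led by Cc2d2a and Cep290. Cc2d2a, a membrane-anchoring component, was 545.1, 0 and 565.0 in neg, 1441, 1320 and 1152 in sub, 475.7, 1082 and 792.3 in low, and 269.1, 915.7 and 263.0 in high. It was highest in sub, whose libraries lay above all other 9. Cep290, which bridges microtubules and membrane, was 0, 50.1 and 498.4 in neg, 102.4, 0 and 1489 in sub, 1096, 1563 and 923.8 in low, and 411.0, 281.0 and 562.7 in high. Low lay above neg and above high. Rpgrip1l, a scaffold of the zone, was 208.0, 2.4 and 0 in neg and 2.9, 0 and 0 in sub. It was 996.0, 226.0 and 0 in low and 528.7, 299.2 and 709.7 in high. High lay above neg and sub, while low overlapped with every other gate and held the highest library. Tmem67, a receptor-like protein of the zone, had more than 3 reads in 6 libraries, and Ahi1 in 3.

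A list of 101 further ciliary and cystic disease genes was examined beside the set, of which 87 were tested. Among them Glis3 rose against neg in each of sub, low and high, and Boc fell in high. These calls are 1.15%, 1.15% and 2.30% of those tested, beside 1.19%, 4.69% and 4.69% of all genes. Glis3 encodes a transcription factor, and its mutation causes cystic kidneys. Glis3 (chromosome 19, 28258851 to 28680077, minus strand) was 0 in all neg libraries, 1994, 1083 and 2125 in sub, 5508, 1697 and 4319 in low, and 3605, 4005 and 3545 in high. It was at least 472.6-fold, 1047-fold and 1014-fold above the neg floor (adjusted p 1.25e-05, 2.15e-06 and 1.64e-06). Its sub call was lost in the 2-gate fit (adjusted p 0.346). Glis3 overlaps 4933413C19Rik on its own strand and D930032P07Rik on the opposite one. Boc, a Hedgehog co-receptor, was at 61.5, 1088 and 462.6 in neg and 0 in all high libraries, at least 177.3-fold lower (adjusted p 0.0466). It passed in 10 of 24 alternatives, whose adjusted p lay between 0.0012 and 0.334.

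Rfx3, an RFX factor that drives ciliary genes, was read in every neg library and passed in no contrast in limma. It was 471.2, 483.1 and 244.4 in neg, 456.9, 117.9 and 316.2 in sub, 459.4, 627.0 and 553.1 in low, and 77.0, 1.0 and 104.5 in high. High lay below all other gates, with a log2 change of -3.91 ± 1.72 against neg that did not pass (adjusted p 0.254). Foxj1, the factor for motile cilia, was 0 in neg and ranged up to 1241 in sub 3, with libraries at or near 0 in every gate. The heavy chain of the retrograde motor, Dync2h1, was named after its values were seen. It was 86.4, 0 and 453.9 in neg, 2628, 2778 and 1384 in sub, 1092, 1184 and 1034 in low, and 1173, 680.2 and 1546 in high. All EGFP-positive libraries lay above neg, and sub against neg had a log2 change of 5.99 ± 1.56 (adjusted p 0.0754), which passed in 3 of 23 alternatives.

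**Figure D4:**
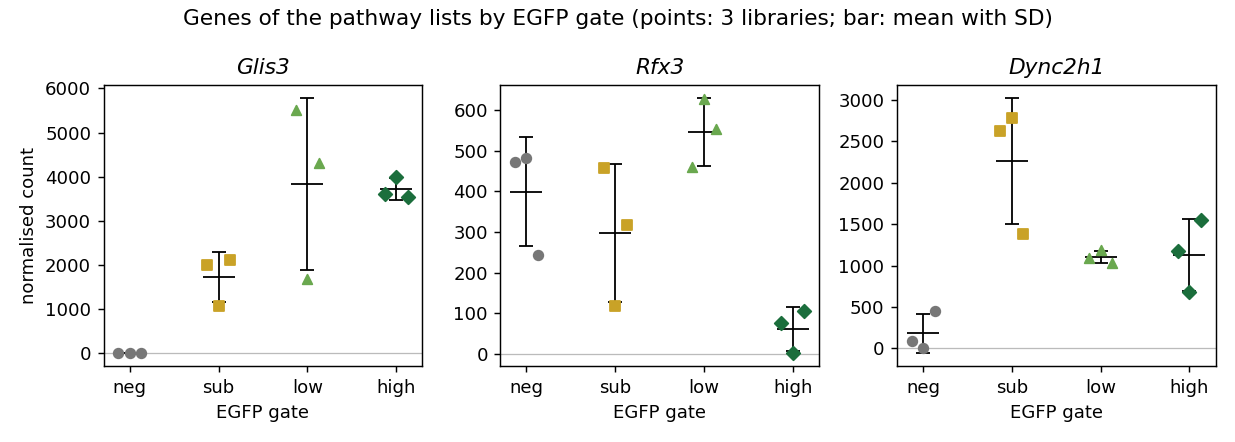
Normalised counts (vertical axis, linear) of Glis3, Rfx3 and Dync2h1 in the 4 EGFP gates (horizontal axis); points are the 3 libraries of a gate, and the bar with whiskers is the mean with SD. Glis3 is at 0 in neg and present in every EGFP-positive library, Rfx3 is lowest in high, and Dync2h1 lies above neg in every EGFP-positive library.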

How the data were processed

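RNA of sorted cells was converted with a stranded total-RNA kit for small inputs, per the labels' protocols. The deposited table holds, for each library and gene symbol, a normalised count (a signal); build mm10, Salmon and DESeq2 1.26.0 are named in the submitters' processing notes. Annotation and the use of strand are not given in the sources used here. In each column every value above 0 was a whole multiple of the smallest value (tolerance 0.01 reads), so 1 read was worth 0.691 to 1.22. Genes with a mean of at least 10 were kept (16128), values were taken as log2(value + 1), and limma 3.58.1 in R 4.3.3 (variance trend) was fitted to all 12 libraries by gate; tests are two-sided, and p-values were adjusted by Benjamini and Hochberg's method with a threshold of 0.05. Where no tool is named beside an adjusted p, limma gave it. The added 1 understates fold changes of low genes, but where libraries of a gate are at 0 a log2 change can be far larger than the ratio of the means, as for Arl13b and Kif3a.

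As alternatives edgeR 4.0.16 (quasi-likelihood) and DESeq2 1.42.0 were run on whole reads of 10 libraries, leaving out sub 3 and high 2, in which 1 read was worth close to 1. A population with at most 3 reads in every library was set to 3 reads of its shallowest library for bounds, which cover counting error only. The members and lists were chosen with earlier results of these data known. Named were Pkhd1, Pkd1, Pkd2, members past the threshold and the member of highest mean in each role; other members follow by role, and from the further list genes past the threshold and Rfx3. Some listed genes are not reported here. Positions are from GENCODE M21. The tests were tested on simulated data.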

Additional observations from a re-analysis of the deposited data

How the results depend on the processing

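Pseudocounts of 0.5 and 5, equal totals and a minimum mean of 100 left every count of members called within 1.5 times, as did no filter, quantile normalisation, edgeR and limma on 10 libraries, the last added after seeing the data. With the replicate number as a block the counts were 1, 3 and 3 for sub, low and high against neg, and it changed no call among them. Same-numbered libraries did not deviate together (correlations from -0.0161 to 0.0266 over 18 pairs), although they also share a tag that may name a mouse. In fits of only 2 gates the counts were 0, 1 and 1. Without the variance trend 1 member was called for low against neg and 1 by the F test over the gates, where 3 were called otherwise. DESeq2 gave an adjusted p to 30 of the 40 genes and called 4 for sub against neg, 4 for low against neg, 5 for high against neg, 4 for low against sub, 3 for high against sub, 1 for high against low and 0 by its test over the gates, with fitted changes for genes at 0 that are no bounds. Its 4 for low against neg were Ift27, Ift57, Nek8 and Pkhd1, of which limma called Pkhd1. Leaving out each library gave 1 to 2 calls in sub, 3 to 5 in low and 2 to 3 in high against neg, 0 to 1 for low against sub and for high against sub, 0 for high against low, and 2 to 4 by the F test. The 5 came without neg 2 and added Ift172 and Pkd2. The second call in sub was Arl13b without neg 1, Ift172 without neg 2 and Kif3a without sub 1. Sums without Pkhd1, the gene of highest mean, were 20146 in sub, 26971 in low and 24953 in high. Leave-one-out sums ranged from 17557 to 19791 in neg, 23304 to 26909 in sub, 34293 to 36636 in low and 35304 to 38580 in high, and members above 3 reads from 17.0 to 21.5, 22.5 to 26.5, 27.5 to 29.5 and 32.5 to 34.5. Of 34 reported gene changes no direction reversed under any alternative. Quantile normalisation moved the median of all genes by -0.133 for high against neg and -0.163 for high against sub on the log2 scale. Other settings moved it further. Examples are 0.186 for high against neg without neg 1 and -0.203 for high against sub with no filter. Many machinery genes were at 0 in some libraries of a gate, which leaves wide errors; the cause was not tested.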
